A study of Mus musculus with 11 samples.

Results

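The transcripts of 9 suppressive mediators of regulatory T (Treg) cells, Il10, Tgfb1, Itgb8, Ebi3, Fgl2, Gzmb, Entpd1, Nt5e and Lgals1, were followed in clonotype+ Treg cells from visceral adipose tissue (VAT) and from pooled spleen and lymph nodes (Spl/LN). They were chosen by name, as products through which Treg cells are known to restrain other cells, and with earlier results of these data known. All 9 were found among the 52997 genes of the deposited count table. The cells carried the vTreg53 TCR, a receptor cloned from a VAT Treg cell and given to mice as a transgene, and Fat1562 is a synthetic agonist peptide of that receptor. Male CD45.2+ Foxp3-GFP vTreg53 TCR-tg Treg cells on the C57BL/6 background were transferred into CD45.1+ B6 recipients. After 6 weeks the recipients received complete Freund's adjuvant (CFA), with or without Fat1562, under the skin, and 1 week later incomplete Freund's adjuvant (IFA), again with or without the peptide, into the peritoneum. Donor clonotype+ cells were then sorted, 1000 cells to a library, giving 3 Spl/LN and 2 VAT libraries after adjuvant alone and 3 libraries of each tissue after adjuvant/Fat1562. The labels give 15 weeks of age and call the controls unimmunized with PBS, whereas the study's methods describe adjuvant alone, the name used here. Every group thus shared the transgene and the transfer. Clonotype+ cells were recognized by staining for the V regions of the transgenic TCR, and the TCR sequences of these libraries were not examined. The cells are taken to stand for 1 Treg specificity rather than for the Treg compartment. The study's methods describe biological replicates of cells from recipient mice, without saying whether each replicate was a single mouse. Nothing in the labels says that the libraries of a group came from separate mice, and the p-values measure only the spread between these libraries.

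Treg cells restrain immune responses through secreted cytokines, through enzymes at their surface and through cytotoxic granules. IL-10 acts on myeloid and T cells through its receptor and STAT3. TGF-beta1 is made as a latent complex that GARP (Lrrc32) holds at the Treg surface and that integrin alpha-v beta-8 releases. CD39 (Entpd1) and CD73 (Nt5e) act in sequence to turn extracellular ATP into adenosine. EBI3 is the shared beta subunit of IL-27 and IL-35, FGL2 can be secreted as a fibrinogen-like protein, granzyme B is a serine protease of cytotoxic granules, and galectin-1 binds glycans on target cells. VAT Treg cells are known as an activated tissue population in which IL-10 is abundant.

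The libraries held between 4490242 and 6570057 counts each. All values below are counts scaled by edgeR's TMM factors to a common depth (normalized counts) unless another scale is named, fold changes are log2 values ± SE from 1 edgeR quasi-likelihood fit over 12932 genes, and a gene was called at a Benjamini-Hochberg adjusted p under 0.05. All 9 mediators passed the expression filter. By Foxp3, the lineage factor, the libraries looked like Treg cells, at 6758 to 10273 normalized counts, and Cd8a did not exceed 6.4. Cd8b1, the other CD8 chain gene, had means of 106 (Spl/LN adjuvant), 90.1 (Spl/LN Fat1562), 183 (VAT adjuvant) and 115 (VAT Fat1562). After adjuvant alone its libraries did not overlap between the tissues, at a difference of 0.78 ± 0.26 that was not called (adjusted p = 0.0511 by edgeR). The 13 macrophage and monocyte markers summed to 42.5 to 165 normalized counts in the first 3 groups and to 399 to 452 in the adjuvant/Fat1562 VAT libraries, where Cx3cr1 alone gave 344, 353 and 405. Among the 9 B and plasma cell markers, Ighm reached 28595 normalized counts in VAT adjuvant replicate 2 against 6028 in replicate 1, with Igkc at 10338 against 784 and Jchain at 1734 against 63.0. Ighm was high in the other groups too. Its means in Spl/LN were 16798 after adjuvant alone and 12544 after adjuvant/Fat1562, above those of Foxp3 there (7453 and 7112). In VAT after adjuvant/Fat1562 its mean was 7560. Cd79a and Cd79b of the same list were far lower. The means of Cd79a were 12.2 (Spl/LN adjuvant), 14.9 (Spl/LN Fat1562), 15.1 (VAT adjuvant) and 17.7 (VAT Fat1562). Those of Cd79b were 164, 151, 107 and 66.5 in the same order. The 9 markers summed to 17552 to 19119 in the Spl/LN adjuvant libraries and to 12351 to 13480 in the Spl/LN Fat1562 libraries. With Fat1562 in VAT, Ighm (-1.19 ± 0.35), Igkc (-4.42 ± 0.81), Jchain (-6.17 ± 1.38) and the mast cell marker Kit (-3.35 ± 0.85) were called lower by edgeR, with adjusted p from 0.00199 to 0.0414. Kit stood at 88.0 and 202 normalized counts after adjuvant alone and between 5.10 and 27.0 after adjuvant/Fat1562, with no overlap, whereas the Ighm libraries overlapped. The other tested B and plasma cell markers were not called with Fat1562 in VAT. Ighd differed by 1.31 ± 0.42 (adjusted p = 0.0643 by edgeR) with no overlap, and Cd79a by 0.24 ± 0.76. Cd79b differed by -0.67 ± 0.30 (adjusted p = 0.207), also with no overlap. The part of these markers in the results below was not tested, and the values without VAT adjuvant replicate 2 are given where they change a call of a mediator.

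Of the 9 mediators, 5 were called between VAT and Spl/LN under adjuvant alone, against 16.3% of all genes tested. Il10, Tgfb1, Fgl2 and Gzmb were higher in VAT, a direction called for 9.09% of all genes, and Nt5e was lower, a direction called for 7.17%. The same 5 had libraries that did not overlap between the tissues, as had 41.4% of all genes. Under adjuvant/Fat1562, 4 were called, against 15.0% of all genes. These were Il10, Itgb8, Fgl2 and Entpd1, all higher in VAT (8.26% of all genes were called higher and 6.73% lower), and 4 had libraries that did not overlap (36.2% of all genes). Within VAT, 5 were called with Fat1562, against 8.30% of all genes. The peptide raised Itgb8, Entpd1 and Nt5e (4.32% of all genes rose) and lowered Il10 and Fgl2 (3.97% fell). Within Spl/LN 0 were called by edgeR, against 3.98% of all genes (2.58% higher and 1.40% lower), although 4 had an unadjusted p under 0.05 (Il10, Fgl2, Entpd1 and Lgals1). DESeq2 called 2 there, Il10 and Entpd1, and limma after quantile normalization called 1, Il10. In at least 1 of these 4 comparisons 7 of the 9 were called, Ebi3 and Lgals1 being the exceptions, against 27.0% of all genes. The peptide's effect differed between the tissues for 4 mediators in the interaction test, against 3.72% of all genes. It was greater in VAT for Itgb8 and Nt5e (1.70% of all genes) and lower in VAT for Il10 and Fgl2 (2.02%). The median log2 fold change of the mediators was 0.22 in the first comparison, 0.43 in the second, -0.13 for Fat1562 in VAT and 0.28 for Fat1562 in Spl/LN, while the medians of all genes lay between -0.03 and 0.01. The comparisons share their groups and are not independent of each other. The mediators were chosen with earlier results of these data known, so their counts beside the shares of all genes are a description only.

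**Figure D1:**
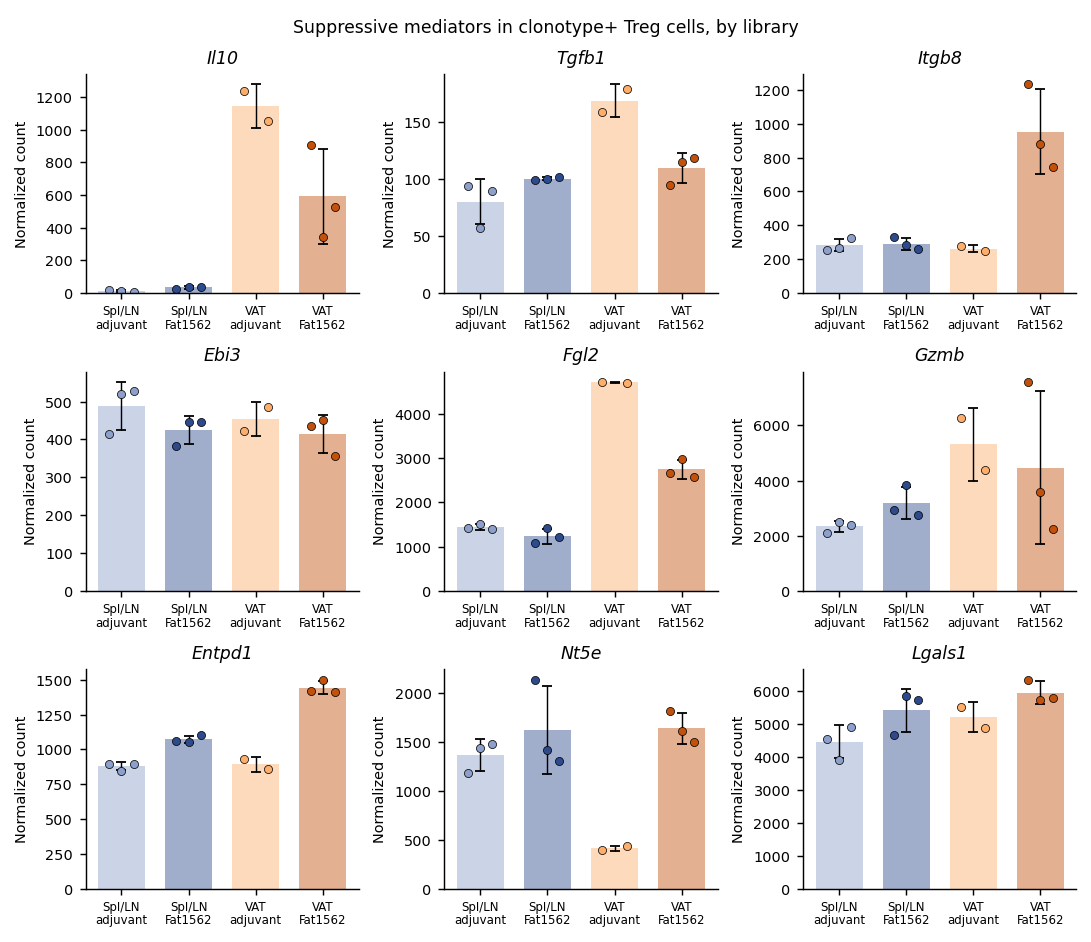
Normalized counts (vertical axes, from 0) of the 9 mediators in the 4 groups. Points are libraries, bars their mean and whiskers the SD (n = 3, and n = 2 for VAT adjuvant). Il10 stayed at or below 40.1 in the Spl/LN libraries and at or above 341 in the VAT libraries.

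**Figure D2:**
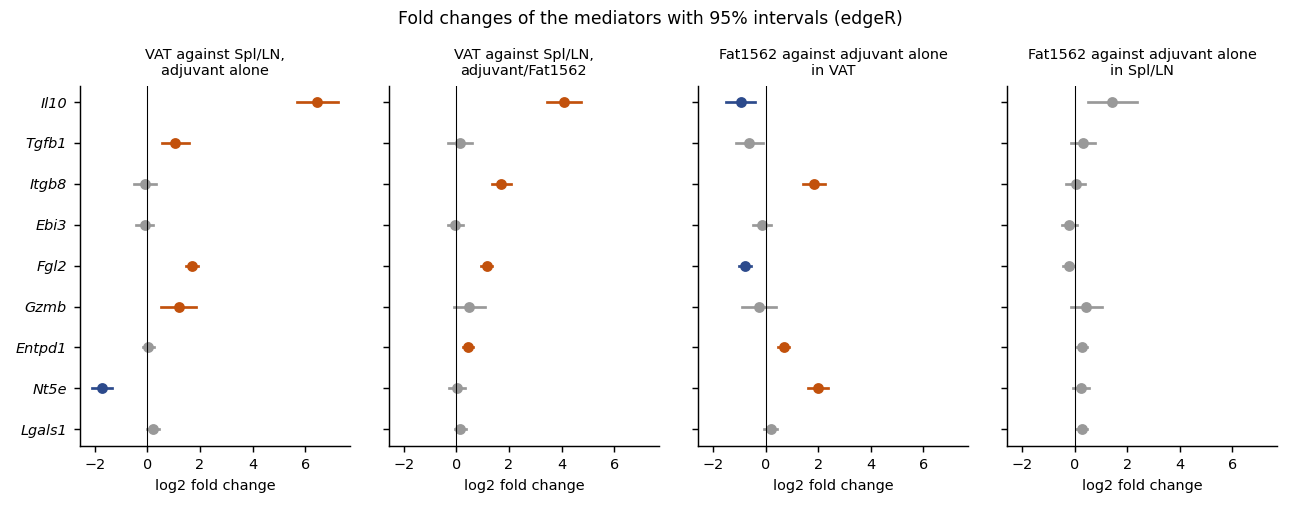
Log2 fold changes of the 9 mediators in the 4 pairwise comparisons (one shared horizontal axis), with 95% intervals that are not adjusted for multiple testing. Orange marks genes called higher, blue genes called lower and grey genes not called by edgeR at an adjusted p under 0.05. Il10 at 6.45 lies farthest to the right, and every gene of the Spl/LN panel is grey.

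Il10, the gene of the anti-inflammatory cytokine IL-10 (mm10, chr1:131019845-131024974, plus strand), separated the tissues most widely. The Spl/LN libraries held 17.4, 13.6 and 8.23 normalized counts after adjuvant alone and 27.7, 36.4 and 40.1 after adjuvant/Fat1562. The VAT libraries held 1237 and 1049.5 after adjuvant alone and 907, 341 and 527 after adjuvant/Fat1562. All VAT libraries thus exceeded all Spl/LN libraries, and within each tissue the libraries of the treatments did not overlap, in opposite order. Il10 was 6.45 ± 0.37 higher in VAT after adjuvant alone (adjusted p = 1.00e-09 by edgeR) and 4.08 ± 0.31 higher after adjuvant/Fat1562 (adjusted p = 6.02e-08). In VAT it changed by -0.95 ± 0.27 with the peptide (adjusted p = 0.0354). That call was lost with DESeq2 (adjusted p = 0.159) and in edgeR without VAT adjuvant replicate 1 (0.224) or 2 (0.0980) or without VAT Fat1562 replicate 2 (0.121) or 3 (0.112). In Spl/LN the difference was 1.42 ± 0.44 and was not called (adjusted p = 0.0866), on counts of 9 to 50 reads, and it was called without VAT Fat1562 replicate 1 or 2, which leave the Spl/LN libraries as they were. The effects in the tissues differed by -2.37 ± 0.52 (adjusted p = 0.0142), which became 0.0507 without VAT adjuvant replicate 1. Ighm, Igkc, Jchain and Kit were called lower with Fat1562 in VAT beside Il10, as given above. Cd79b was lower and Ighd and Cd79a were higher, without a call. The part of these markers in the Il10 result was not tested. These are bulk libraries, in which fewer cells with a transcript and less transcript per cell cannot be told apart.

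The IL-10 receptor and regulator list held 15 tested genes of 19. Of these, 5 were called higher and 0 lower in VAT after adjuvant alone, against 9.09% and 7.17% of all genes. Il10ra, the ligand-binding receptor chain, stood at 3211 and 3409.6 normalized counts in the VAT adjuvant libraries. The other groups held 1253, 1387 and 1287 (Spl/LN adjuvant), 1318, 1218 and 1496 (Spl/LN Fat1562) and 1582, 1186 and 1549 (VAT Fat1562). The VAT adjuvant libraries therefore lay far above the other 3 groups, which overlapped. Il10ra was 1.34 ± 0.12 higher in VAT after adjuvant alone (adjusted p = 3.50e-07 by edgeR), fell by 1.20 in VAT with Fat1562 (adjusted p = 5.98e-06) and did not pass in Spl/LN (0.04 ± 0.11, adjusted p = 0.894). Bhlhe40, a transcription factor known as a repressor of Il10, was 2.66 ± 0.27 higher in VAT after adjuvant alone and 3.31 ± 0.26 higher after adjuvant/Fat1562. With Fat1562 in VAT 3 of the 15 genes were called, against 8.30% of all genes. Il10ra was lower and Nfil3 and Batf, both basic leucine zipper factors, were higher. Nfil3 rose by 1.21 ± 0.16 in VAT and by 0.75 ± 0.15 in Spl/LN, and Batf rose by 0.82 ± 0.11 in VAT. Socs3, a feedback inhibitor of STAT3 signaling, fell by 0.93 with Fat1562 in Spl/LN (adjusted p = 3.43e-04).

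Tgfb1 encodes TGF-beta1 (chr7:25687002-25705077, plus strand). Its latency peptide carries the arginine-glycine-aspartate triplet that alpha-v integrins bind, and these codons are shown because they join Tgfb1 to Itgb8. A search of the 390 codons of its longest GENCODE vM21 coding sequence found 1 such triplet, beginning at codon 244 in exon 5 of 7. The stretch of 60 bases at chr7:25697127-25697186 (GRCm38, plus strand) reads as follows, with the triplet in capitals.
Tgfb1: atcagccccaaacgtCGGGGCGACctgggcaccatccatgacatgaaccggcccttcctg
The transcript was scarce, at 93.7, 57.4 and 89.6 normalized counts in Spl/LN and 159 and 179 in VAT after adjuvant alone. With Fat1562 the values were 99.3, 99.6 and 102 in Spl/LN and 94.6, 115 and 119 in VAT. The VAT adjuvant libraries were the highest of all, and the tissues overlapped after the peptide. Tgfb1 was 1.07 ± 0.24 higher in VAT than in Spl/LN after adjuvant alone (adjusted p = 0.00526 by edgeR), or 0.0598 without VAT adjuvant replicate 2. After adjuvant/Fat1562 the difference was 0.13 ± 0.22 (adjusted p = 0.771). With Fat1562 it differed by -0.62 ± 0.24 in VAT (adjusted p = 0.137) and by 0.32 ± 0.22 in Spl/LN (adjusted p = 0.493), neither of which was called.

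Itgb8, the beta-8 chain of the integrin that releases active TGF-beta (chr12:119158022-119238802, minus strand), was highest in VAT after adjuvant/Fat1562. Its libraries held 256, 269 and 324 normalized counts in Spl/LN and 277 and 249 in VAT after adjuvant alone. After adjuvant/Fat1562 they held 331, 282 and 261 in Spl/LN and 1232, 881 and 745 in VAT. The first 3 groups overlapped, and each VAT Fat1562 library exceeded all libraries of the other groups. Fat1562 raised Itgb8 in VAT by 1.85 ± 0.20 (adjusted p = 1.18e-05 by edgeR), against 0.04 ± 0.17 in Spl/LN (adjusted p = 0.933). The difference between these effects was 1.81 ± 0.26 (adjusted p = 6.88e-04) and was called under every alternative run. VAT exceeded Spl/LN by 1.71 ± 0.17 after adjuvant/Fat1562 (adjusted p = 1.43e-06) and by -0.11 ± 0.20 after adjuvant alone (adjusted p = 0.776). In these same VAT Fat1562 libraries Cx3cr1 was the highest of the macrophage and monocyte markers, as given above. Itgam was called higher with Fat1562 in VAT as well (3.23 ± 0.99, adjusted p = 0.0497, from 0 and 6.25 to 59.7, 12.2 and 15.5 normalized counts). The other tested markers of that list were not called there. Lyz2 was at or below 5.48 after the peptide and differed by -2.24 ± 1.02 with no overlap (adjusted p = 0.203 by edgeR). Cd68 differed by 0.18 ± 0.74 (adjusted p = 0.934). The part of these markers in the Itgb8 result was not tested.

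The partners of Itgb8 and Tgfb1 moved differently. Lrrc32, which encodes GARP, was 544, 798 and 598 normalized counts in Spl/LN and 253 and 292 in VAT after adjuvant alone. With the peptide it was 342, 280.5 and 349 in Spl/LN and 1254, 1169 and 1024 in VAT. The order of the tissues was thus inverted by the treatment, with no overlap in either. Lrrc32 was lower in VAT after adjuvant alone, at -1.25 ± 0.17 (adjusted p = 5.46e-05 by edgeR) and 1.82 ± 0.15 higher after adjuvant/Fat1562 (adjusted p = 1.39e-07). It rose by 2.08 ± 0.18 in VAT and fell by 0.99 in Spl/LN with Fat1562, a difference of 3.07 ± 0.23 between the tissues (adjusted p = 2.52e-06). Itgav, the alpha-v chain with which beta-8 pairs, was 231, 211 and 239 normalized counts in Spl/LN and 1279 and 1366 in VAT after adjuvant alone. With the peptide it was 460.4, 449.6 and 346 in Spl/LN and 1701, 1515 and 1307 in VAT. VAT exceeded Spl/LN under both treatments, by 2.54 ± 0.14 and 1.85 ± 0.13, and Fat1562 raised Itgav in Spl/LN by 0.88 ± 0.13 (adjusted p = 8.16e-04) but not detectably in VAT (0.19 ± 0.14, adjusted p = 0.480).

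Of the TGF-beta activation and signaling list, 20 of 24 genes were tested. In VAT against Spl/LN, 5 were called higher and 3 lower after adjuvant alone (9.09% and 7.17% of all genes). After adjuvant/Fat1562, 6 were called higher and 3 lower (8.26% and 6.73% of all genes). Tgif1, which encodes a repressor of SMAD-driven transcription, was 2.55 ± 0.13 higher in VAT after adjuvant alone and 2.75 ± 0.13 higher after adjuvant/Fat1562. Furin, which encodes the protease that cleaves the TGF-beta1 precursor, was higher by 1.48 ± 0.28 and 1.76 ± 0.25. Itgb1, an integrin chain that can also pair with alpha-v, was lower, at -2.31 ± 0.25 and -1.26 ± 0.21. Nrp1, a surface receptor of Treg cells that can bind TGF-beta, was lower in VAT, at -1.09 ± 0.15 and -1.17 ± 0.13. With Fat1562 in VAT only Lrrc32 was called higher and only Nrp1 lower (-0.68 ± 0.14, adjusted p = 0.00540, or 0.0693 without VAT adjuvant replicate 2). Of all genes, 4.32% were called higher and 3.97% lower there. In Spl/LN 1 was called higher, Itgav, and 3 lower, Lrrc32, Itgb1 and Nrp1, against 2.58% and 1.40% of all genes. Itgb1 and Nrp1 lost their calls when some single Spl/LN libraries were left out, with adjusted p up to 0.106 and 0.0554.

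**Figure D3:**
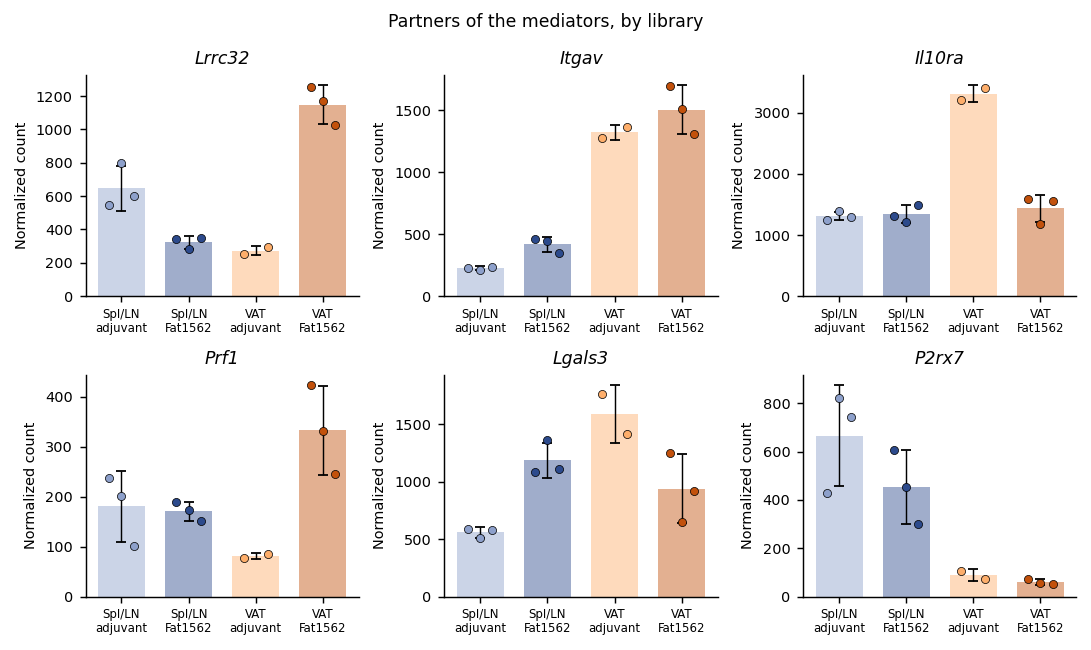
Normalized counts (vertical axes, from 0) of 6 genes that act with the mediators: Lrrc32 (GARP), Itgav (integrin alpha-v), Il10ra, Prf1 (perforin), Lgals3 and P2rx7. Points are libraries, bars their mean and whiskers the SD (n = 3, and n = 2 for VAT adjuvant). The means of Lrrc32 and Prf1 are lowest in VAT after adjuvant alone and highest in VAT after adjuvant/Fat1562.

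Ebi3 (chr17:55952640-55957022, plus strand) was expressed at a like level throughout. It stood at 415, 521 and 529 normalized counts (Spl/LN adjuvant), 383, 445 and 447 (Spl/LN Fat1562), 423 and 486 (VAT adjuvant) and 436, 451 and 356 (VAT Fat1562). All groups overlapped. No comparison was called, and the 95% interval of the difference between VAT and Spl/LN ran from -0.43 to 0.22 after adjuvant alone and from -0.33 to 0.25 after adjuvant/Fat1562. The interval for Fat1562 ran from -0.46 to 0.19 in VAT and from -0.49 to 0.09 in Spl/LN. Its annotated exons share 270 bases with the antisense gene Gm16712, and 17.9% of its stretches of 38 bases, the read length, occur there as well. The library kit does not mark strand, so reads of these genes cannot be told apart in that stretch. The partner chains were near the floor: Il12a, the alpha chain of IL-35, did not exceed 2.41 normalized counts and Il27 did not exceed 0.802. Il12b, which belongs to the same family and is not a partner of EBI3, did not exceed 4.17. None of these passed the filter. In the IL-12 family list, of which 7 genes were tested, Il12rb1 and Stat4 were called higher and Il6st lower in VAT after adjuvant alone. The calls of Stat4 and Il6st were lost without VAT adjuvant replicate 1 (adjusted p = 0.304 and 0.0920 by edgeR). Il12rb1, a receptor chain for IL-12 and IL-23, was 1.00 ± 0.16 higher in VAT after adjuvant alone and rose by 0.70 ± 0.14 with Fat1562 in Spl/LN (adjusted p = 0.0104), a call lost without Spl/LN Fat1562 replicate 2 (0.0680). Il6st encodes gp130, the signaling chain of the IL-6 family.

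Fgl2, which encodes fibrinogen-like protein 2 (chr5:21372642-21378374, plus strand), differed between the tissues under both treatments. After adjuvant alone it stood at 1421, 1516 and 1399 normalized counts in Spl/LN and at 4712 and 4704 in VAT. With Fat1562 the values were 1074, 1412 and 1219 in Spl/LN and 2669, 2983 and 2576 in VAT. VAT exceeded Spl/LN in every library, and the VAT libraries of the treatments did not overlap. Fgl2 was 1.70 ± 0.11 higher in VAT after adjuvant alone (adjusted p = 3.36e-09 by edgeR) and 1.15 ± 0.10 higher after adjuvant/Fat1562 (adjusted p = 2.64e-07). In VAT it changed by -0.78 ± 0.11 with Fat1562 (adjusted p = 1.39e-04), and in Spl/LN by -0.23 ± 0.10, which was not called (adjusted p = 0.222). The effects differed by -0.55 ± 0.15 between the tissues (adjusted p = 0.0432), a call lost under 10 of 20 alternatives, among them quantile normalization with limma (adjusted p = 0.179) and the fits without VAT adjuvant replicate 1 (0.133) or 2 (0.127). Fcgr2b, an inhibitory Fc receptor to which FGL2 can bind, did not exceed 7.64 normalized counts in these cells, and none of the 5 FGL2 relatives and receptors passed the filter.

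Gzmb, the gene of granzyme B (chr14:56258838-56262260, minus strand), varied widely between libraries of a group. It stood at 2111, 2512 and 2392 normalized counts in Spl/LN and at 6259.7 and 4389 in VAT after adjuvant alone. With Fat1562 the values were 2946, 3857 and 2752 in Spl/LN and 7572, 3599 and 2244 in VAT. The VAT Fat1562 libraries thus held both the highest value of all and one below every Spl/LN Fat1562 library. VAT exceeded Spl/LN by 1.19 ± 0.31 after adjuvant alone (adjusted p = 0.0134 by edgeR), which became 0.0648 with DESeq2 and 0.157 without VAT adjuvant replicate 1. After adjuvant/Fat1562 the difference was 0.49 ± 0.28 (adjusted p = 0.284), but it was 0.81 and called without VAT Fat1562 replicate 3 (adjusted p = 0.0247) and -0.12 without replicate 1. Fat1562 against adjuvant alone gave -0.25 ± 0.31 in VAT (adjusted p = 0.709), or -0.87 and called without VAT Fat1562 replicate 1 (adjusted p = 0.0158), and 0.45 ± 0.28 in Spl/LN (adjusted p = 0.436). The effects differed by -0.70 ± 0.42 (adjusted p = 0.438), or by -1.31 without VAT Fat1562 replicate 1 (adjusted p = 0.0105). With no filter on low counts Gzmb was called for the tissues after adjuvant/Fat1562 (adjusted p = 1.07e-05), for Fat1562 in Spl/LN (1.26e-04) and in the interaction (3.96e-05), at like fold changes. In Spl/LN the libraries of the treatments did not overlap, as for 4 mediators there and for 21.2% of all genes.

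The granule list held 16 tested genes of 22. In VAT against Spl/LN, 5 were called higher and 1 lower after adjuvant alone (9.09% and 7.17% of all genes). After adjuvant/Fat1562, 6 were called higher and 1 lower (8.26% and 6.73% of all genes). With Fat1562 in VAT, 2 were called higher and 1 lower (4.32% and 3.97% of all genes). With Fat1562 in Spl/LN, 5 were called higher and 0 lower (2.58% and 1.40% of all genes). Prf1, which encodes the pore-forming perforin, stood at 238, 202 and 102 normalized counts in Spl/LN and at 77.2 and 86.2 in VAT after adjuvant alone. The peptide groups held 189, 173 and 151 in Spl/LN and 423, 331 and 245 in VAT. VAT was thus the lower tissue after adjuvant alone and the higher one after the peptide, at -1.14 ± 0.32 and 0.96 ± 0.26, and both calls were lost when some single libraries were left out, with adjusted p up to 0.134 and 0.106. Fat1562 raised Prf1 in VAT by 2.03 ± 0.32 (adjusted p = 5.35e-04 by edgeR), against -0.08 ± 0.26 in Spl/LN (adjusted p = 0.915), and these effects differed by 2.10 ± 0.41 (adjusted p = 0.00703). Nkg7, a granule membrane protein gene, rose with Fat1562 by 2.82 ± 0.36 in VAT and by 2.11 ± 0.32 in Spl/LN. Srgn, the proteoglycan core on which granzymes are stored, was 0.97 ± 0.12 higher in VAT after adjuvant alone and rose by 0.57 ± 0.11 with Fat1562 in Spl/LN. Ctsh, a lysosomal cysteine protease gene, was 2.76 ± 0.18 higher in VAT after adjuvant alone. It was called lower with Fat1562 in VAT, a call lost without VAT adjuvant replicate 2. Gzmc was called lower in VAT after adjuvant/Fat1562. It was called higher with Fat1562 in Spl/LN, a call lost under 10 of 21 alternatives. Gzma ranged from 0 to 168 normalized counts with no order by group and was not called. The NK and CD8 T cell markers summed to 99.9 to 196 normalized counts over all libraries, and their part in the granule genes was not tested.

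The upstream windows of Fgl2 and Gzmb are shown because both genes were higher in VAT after adjuvant alone and both windows hold the letters of an AP-1 site. RefSeq promoter windows (GRCm38.p6) were found for 7 of the 9 mediators, in 8 windows, and the 250 bases before each start were searched on both strands for 6 motifs. TGANTCA, the AP-1 site, was found for Fgl2 and Gzmb and is held by 6.75% of all 32851 windows. TGACGTCA (CRE, 1.55% of windows), TGGAAA (NFAT, 18.6%), the NF-kB motif (1.41%), AGATAA (bound by factors of the GATA family, 9.99%) and CACGTG (E-box, 6.02%) were not in the mediators' windows, and Il10 and Lgals1 were not searched. The Fgl2 stretch is chr5:21372643-21372672 (plus strand), which GENCODE places in the first exon, and the Gzmb stretch is chr14:56262335-56262584 (minus strand), with the match in capitals. The match ends 10 bases before the RefSeq start of Fgl2 and 52 bases before that of Gzmb.
Fgl2: gaactcagaacgccTGAGTCAggcggcggt
Gzmb: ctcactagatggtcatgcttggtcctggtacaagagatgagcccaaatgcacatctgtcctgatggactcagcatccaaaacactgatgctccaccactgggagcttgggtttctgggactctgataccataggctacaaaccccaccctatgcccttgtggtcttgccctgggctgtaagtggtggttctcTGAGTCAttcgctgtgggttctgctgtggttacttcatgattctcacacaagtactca
These matches describe letters and are not evidence of binding.

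Entpd1 and Nt5e, the genes of the enzymes of the adenosine pathway, differed in their pattern. Entpd1, which encodes the ATP- and ADP-cleaving CD39 (chr19:40612366-40741602, plus strand), stood at 893, 847 and 898 normalized counts in Spl/LN and at 932 and 857 in VAT after adjuvant alone. The peptide groups held 1063, 1054 and 1103 in Spl/LN and 1419.5, 1500.4 and 1413 in VAT. The tissues overlapped after adjuvant alone, and both peptide groups lay above both adjuvant groups. Fat1562 raised Entpd1 in VAT by 0.69 ± 0.10 (adjusted p = 2.39e-04 by edgeR). In Spl/LN it differed by 0.29 ± 0.09, which was not called (adjusted p = 0.0781), or 0.0264 with DESeq2. VAT exceeded Spl/LN by 0.43 ± 0.09 after adjuvant/Fat1562 (adjusted p = 0.00241) and by 0.03 ± 0.10 after adjuvant alone (adjusted p = 0.900). The difference between the peptide's effects in the tissues was 0.40 ± 0.13 (adjusted p = 0.110), or 0.0402 with DESeq2.

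Nt5e encodes CD73, which makes adenosine from AMP (chr9:88327197-88372092, plus strand). It stood at 1182, 1439.7 and 1474 normalized counts in Spl/LN and at 396 and 431 in VAT after adjuvant alone. After adjuvant/Fat1562 it stood at 2132, 1418 and 1307 in Spl/LN and at 1809, 1614 and 1492 in VAT. VAT after adjuvant alone was the lowest group, with no overlap, and the Spl/LN Fat1562 libraries overlapped those of both other groups. Nt5e was lower in VAT after adjuvant alone, at -1.72 ± 0.18 (adjusted p = 2.77e-06 by edgeR). Fat1562 raised it in VAT by 1.99 ± 0.18 (adjusted p = 2.80e-06), a 3.96-fold change, against 0.25 ± 0.15 in Spl/LN (adjusted p = 0.413). These effects differed by 1.74 ± 0.23 (adjusted p = 3.78e-04), and after adjuvant/Fat1562 the tissues differed by 0.02 ± 0.15, with a 95% interval from -0.30 to 0.33.

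The purine list held 19 tested genes of 26. In VAT 4 were called higher and 5 lower after adjuvant alone (9.09% and 7.17% of all genes). After adjuvant/Fat1562, 2 were called higher and 5 lower (8.26% and 6.73% of all genes). P2rx7, the ATP-gated channel whose opening can kill Treg cells, stood at 428, 823 and 745 normalized counts (Spl/LN adjuvant), 607, 452 and 299 (Spl/LN Fat1562), 108 and 72.5 (VAT adjuvant) and 74.3, 57.1 and 52.0 (VAT Fat1562). All VAT libraries were below all Spl/LN libraries, by -2.88 ± 0.33 after adjuvant alone and -2.89 ± 0.29 after adjuvant/Fat1562. Art2b, an ADP-ribosyltransferase that sensitizes P2RX7 to NAD, was lower in VAT as well, at -2.46 ± 0.23 and -1.91 ± 0.19. Of the adenosine receptors, Adora2a stood between 385 and 631 normalized counts with no call, and Adora2b was higher in VAT under both treatments at low counts (0 to 5.22 in Spl/LN, 19.6 to 54.0 in VAT). That Adora2b call was lost after adjuvant alone without VAT adjuvant replicate 2 (adjusted p = 0.0551). Ada, which degrades adenosine, was not called, with values from 55.0 to 119 normalized counts. With Fat1562 in VAT, Panx1, an ATP-releasing channel, rose by 1.21 ± 0.25 (adjusted p = 0.00588, or 0.0852 without VAT adjuvant replicate 1).

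Lgals1, which encodes galectin-1 (chr15:78926725-78930465, plus strand), was abundant and was not called in any comparison by edgeR, except for Fat1562 in Spl/LN when no filter on low counts was applied (adjusted p = 0.0440). It stood at 4549, 3915 and 4919.9 normalized counts (Spl/LN adjuvant), 4676, 5852 and 5721 (Spl/LN Fat1562), 5529 and 4885 (VAT adjuvant) and 6343, 5721 and 5807 (VAT Fat1562). Groups next to each other in mean level overlapped. Between the treatments in VAT the Lgals1 libraries did not overlap, as for 7 of the mediators and for 41.1% of all genes. The intervals of the difference ran from -0.01 to 0.46 for VAT against Spl/LN after adjuvant alone from -0.04 to 0.43 for Fat1562 in VAT and from 0.07 to 0.49 for Fat1562 in Spl/LN, where the adjusted p was 0.129. In the galectin list, 12 of 14 genes were tested. Lgals3, which encodes a galectin with other glycan preferences, stood at 591, 505 and 578 normalized counts in Spl/LN and at 1764 and 1412 in VAT after adjuvant alone. The peptide groups held 1085, 1362 and 1111 in Spl/LN and 1246, 650.3 and 922 in VAT. The tissues were apart after adjuvant alone and overlapped after the peptide. Fat1562 raised Lgals3 in Spl/LN by 1.09 ± 0.18 (adjusted p = 0.00146 by edgeR) and changed it by -0.76 ± 0.19 in VAT (adjusted p = 0.0186), the latter lost without VAT adjuvant replicate 1 or VAT Fat1562 replicate 2 or 3, with adjusted p from 0.0523 to 0.204. The effects differed by -1.84 ± 0.26 (adjusted p = 5.62e-04). Havcr2, which encodes TIM-3, a receptor of galectin-9, rose in VAT by 1.80 ± 0.16 with Fat1562, against -0.07 ± 0.14 in Spl/LN, a difference of 1.87 ± 0.21 (adjusted p = 9.22e-05). Lgals9 itself changed by -0.47 ± 0.10 in VAT (adjusted p = 0.00666, or 0.103 without VAT adjuvant replicate 1). Of the 12 genes, 3 were called higher and 0 lower with Fat1562 in Spl/LN (2.58% and 1.40% of all genes). In VAT 1 was called higher and 3 lower (4.32% and 3.97% of all genes).

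Levels can be compared between genes only per length. On the scale of counts per kilobase of exon, scaled to equal library totals (CPM per kilobase), Lgals1 was the most abundant mediator, at 966 ± 108 (SD, n = 3) in Spl/LN after adjuvant alone and 1192 ± 54 in VAT after adjuvant/Fat1562. Gzmb followed, with group means of 318 to 652 on this scale. Il10 ranged from 1.96 ± 0.71 in Spl/LN to 154 ± 15 in VAT after adjuvant alone, and so passed from the lowest of the 9 to a level below those of Lgals1, Gzmb and Fgl2 (219 ± 3.5 in the same group). Tgfb1 stayed between 3.11 and 5.90 CPM per kilobase, and Itgb8 between 4.18 and 15.5. With the longest transcript in place of all exons, Nt5e stood at 18.2 to 77.0 in place of 8.47 to 35.8, and Tgfb1 at 6.10 to 11.6, and the order of Tgfb1 and Itgb8 turned with the length used in Spl/LN after adjuvant/Fat1562.

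**Figure D4:**
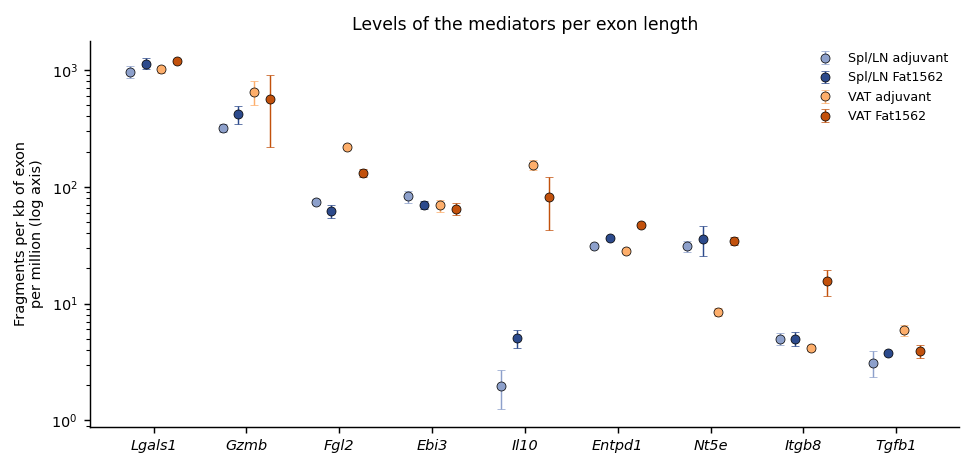
Mean level of each mediator in CPM per kilobase of exon (logarithmic vertical axis), with SD whiskers, in the 4 groups (n = 3, and n = 2 for VAT adjuvant). Lgals1 and Gzmb lie highest in every group, and Il10 runs from 1.96, the lowest level in Spl/LN after adjuvant alone, to 154 in VAT.

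The genes whose pattern was most like that of a mediator were sought over the 11 libraries by Pearson's r of log2(normalized count + 1), as a description in which all points share the tissue and treatment structure. For Il10 they were Gm17024 (r = 0.987), Cdkn1a (0.986) and Ctla4 (0.985). Fgl2 was most like P2ry10 (0.989), Gadd45b (0.989) and Junb (0.986). Itgb8 was most like Havcr2 (0.984), Axl (0.968) and Cox5b (0.965), and in the 6 Spl/LN libraries r with Havcr2 was 0.295. Entpd1 was most like Plek (0.979), Fcrl6 (0.977) and Litaf (0.969), and Nt5e most like Slc7a7 (0.959), Ahdc1 (0.952) and Tbc1d2b (0.946). The values for Tgfb1, Ebi3, Gzmb and Lgals1 were lower, their best being Chd2 (0.934), Vps41 (0.926), Il20ra (0.940) and Rab5a (0.947). Between the mediators themselves, r was 0.905 for Il10 with Fgl2 and 0.898 for Itgb8 with Entpd1, and -0.720 for Fgl2 with Nt5e.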

How the data were processed

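RNA-seq was performed on 1000 double-sorted clonotype+ Treg cells per library with an ultra-low-input protocol and paired reads of 38 bases, in 11 libraries. The authors deposited whole-number counts per gene, 1 table for all libraries, and 0 columns were left unmatched to a sample. The submitters' processing notes name STAR 2.5.4, featureCounts and mm10, whereas the study's methods name Cuffquant. The annotation and the strand setting are not given in the sources used here. Duplicate reads cannot be recognized in the table, so depth limits counting error only.

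The deposited counts were analysed with edgeR 4.0.16 in R 4.3.3: library totals were equalized, genes whose mean then exceeded 10 in any group were retained (12932), TMM factors were computed, and 1 quasi-likelihood model with 4 group means gave the 4 pairwise contrasts and the interaction, with Benjamini-Hochberg adjustment over all genes tested. The biological coefficient of variation was 19.1%. The scripts were tested on simulated counts. Alternatives were other filters, normalizations, DESeq2 1.42.0, limma 3.58.1, a 2-fold minimum, a fit restricted to the compared groups, a replicate block, and the omission of single libraries. Positions and exon lengths come from GENCODE vM21 (GRCm38), and promoter windows from RefSeq (GRCm38.p6).

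The members, the lists and the tests were chosen with earlier results of these data known. The 9 mediators were named in every group, with their fixed partners, the markers, up to 4 called genes of each list and comparison by absolute fold change, and the 3 genes most like each mediator. Some marker and list genes are not reported here.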

Additional observations from a re-analysis of the deposited data

Results flagged for a closer look

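The effect of Fat1562 differed between VAT and Spl/LN for 4 mediators in edgeR's interaction test over all 12932 genes. Nt5e (CD73) differed by 1.74 on the log2 scale (adjusted p = 3.78e-04) and Itgb8 by 1.81 (adjusted p = 6.88e-04), both being raised by the peptide in VAT in 3 of 3 libraries above the 2 VAT adjuvant libraries. Il10 differed by -2.37 (adjusted p = 0.0142), with all VAT Fat1562 libraries below and all Spl/LN Fat1562 libraries above those of adjuvant alone. Fgl2 differed by -0.55 (adjusted p = 0.0432), with all 3 VAT Fat1562 libraries below the 2 VAT adjuvant libraries. The Fgl2 call was lost under 10 of 20 alternatives, among them the fit without VAT adjuvant replicate 2 (adjusted p = 0.127), and the Il10 call was lost without VAT adjuvant replicate 1 (0.0507). VAT adjuvant replicate 2, which enters each of these differences, also held the most Ighm (28595 normalized counts), and the calls of Il10, Itgb8 and Nt5e held without it.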

How the results depend on the processing

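Of 18 called mediator results, 10 kept call and direction under all alternatives run, 23 of 374 alternative values lost the call and 0 reversed. Of 27 results not called, 15 of 562 alternative values gained a call and 24 reversed. With a 2-fold minimum 2 mediators were called for Fat1562 in VAT (Itgb8 and Nt5e). For Fat1562 in Spl/LN, 3 were called with no filter (Il10, Gzmb and Lgals1), 2 with DESeq2, and 1 with quantile normalization in limma. Leaving out 1 library gave 4 to 5 called in either tissue comparison, 4 to 6 for Fat1562 in VAT, 0 to 1 in Spl/LN (1 without VAT Fat1562 replicate 1 or 2) and 2 to 4 in the interaction (2 without VAT adjuvant replicate 1). With the replicate block 1 mediator, Il10, was called in Spl/LN (adjusted p = 0.0486) and the other counts were as before. The deviations of same-number libraries correlated at -0.0687 to 0.0796 (15 pairs). The 5 pairs of the same treatment and number in VAT and Spl/LN were all positive, from 0.0218 to 0.0796. Pairs of the same treatment and different number ran from -0.105 to 0.051. Deviations were taken from group means, so the values within a group constrain each other and the pairs are not independent. Those of the 2 VAT adjuvant libraries are mirror images, as in 0.0707 and -0.0707 with Spl/LN adjuvant replicate 1. The replicate block joined equal numbers across the treatments as well, so it cannot test a pairing of the tissues within a treatment. Such a pairing was not fitted, and the p-values for the tissues and the interaction leave it out. Over all genes, Fat1562 in Spl/LN gave 515 calls, against 793 with DESeq2 and 793 with no filter, and the interaction 481 against 783 with DESeq2. Leaving out 1 library gave 190 to 502 calls in Spl/LN (190 without Spl/LN Fat1562 replicate 2), 508 to 1398 for Fat1562 in VAT in place of 1073 (508 without VAT adjuvant replicate 2 and 545 without replicate 1), 240 to 575 in the interaction (240 without VAT adjuvant replicate 1), 1259 to 2114 between the tissues after adjuvant alone in place of 2102 (1259 without VAT adjuvant replicate 1) and 1289 to 2377 after adjuvant/Fat1562 in place of 1938 (1289 without VAT Fat1562 replicate 2). The shares of all genes called move with these counts. The causes were not tested.

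Some results that were not called changed sign. Upper-quartile normalization gave -0.014 for Entpd1 (tissues, adjuvant alone) and -0.0157 for Nt5e (tissues, adjuvant/Fat1562). Quantile normalization gave -0.0724 for Entpd1 and -0.0314 for Nt5e there, and for Lgals1 -0.0995 (tissues, adjuvant alone), -0.0148 (tissues, adjuvant/Fat1562) and 0.0847 (interaction). Leaving out 1 library, the tissue difference after adjuvant alone ranged from -0.192 to 0.00548 for Itgb8 and from -0.0416 to 0.0791 for Entpd1. After adjuvant/Fat1562 it ranged from -0.107 to 0.0602 for Ebi3, from -0.125 to 0.811 for Gzmb and from -0.115 to 0.267 for Nt5e. The effect of Fat1562 ranged from -0.872 to 0.0633 for Gzmb in VAT, and in Spl/LN from -0.0637 to 0.152 for Itgb8 and from -0.00463 to 0.378 for Nt5e. The interaction ranged from -0.0269 to 0.175 for Ebi3 and from -0.18 to 0.0116 for Lgals1.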
